A study of Mus musculus with 23 samples.

Results

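The 2 arms of the miR-126a hairpin, miR-126a-3p (MIMAT0000138) and miR-126a-5p (MIMAT0000137), were followed in sorted cells of the developing mouse lung. They are 2 of the 602 microRNA rows of the deposited table and were chosen by identifier, and both were among the 302 microRNAs that passed the background filter. The 23 samples were wild-type C57BL6 cells, labelled endothelial cells (EC, 10 samples, with CD31 in their descriptions) or type II pneumocytes (AT2, 13 samples, with CD326), and no treatment is named. CD31 is a surface protein of endothelial cells and CD326 (EpCAM) one of epithelial cells, and type II pneumocytes make surfactant in the alveolus. The stages were 16.5 and 18.5 days of embryonic development (E16.5 and E18.5) and 1, 7, 14 and 28 days after birth (P1 to P28). There were 2 EC samples per stage, but 1 at E18.5 and 1 at P1, and 2 AT2 samples per stage, but 3 at P28. The labels do not say whether samples came from separate or pooled animals, so p-values measure only the spread between these samples. RNA was read on a NanoString nCounter mouse microRNA panel, which counts barcoded probes without amplification.

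miR-126 is the best known microRNA of endothelial cells. It lies in an intron of Egfl7, a gene of a protein secreted by endothelium, and is made along with it. The hairpin is cut into a 3p arm, the main guide strand, and a 5p arm, long regarded as the passenger strand. The 3p arm represses Spred1 and Pik3r2, inhibitors of the signalling below vascular endothelial growth factor, and Vcam1, a leukocyte adhesion molecule, and the 5p arm has targets of its own, among them Dlk1 in endothelial cells. Loss of miR-126 in mice causes leaky vessels and haemorrhage.

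The precursor and the guide arm cut from it are given because the arm ratio compares products of this 1 hairpin. In RefSeq (GRCm38.p6, the mm10 build that the submitters' processing notes name) the Mir126a hairpin of 73 bases lies on the plus strand at chr2:26591357-26591429, within the span of Egfl7 (chr2:26581083-26592682). In the hairpin, capitals mark miR-126a-3p, bases 46 to 67. In the mature sequence, capitals mark the seed, bases 2 to 8, which pairs with targets.
Mir126a hairpin: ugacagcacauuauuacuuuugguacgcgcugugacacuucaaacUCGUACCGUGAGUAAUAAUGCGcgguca
miR-126a-3p: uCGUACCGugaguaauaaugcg
Of 1679 mature mouse microRNAs in the RefSeq table, 1 has this seed, miR-126a-3p itself, so no other listed microRNA shares its seed matches. RefSeq also lists Mir126b, a hairpin of 58 bases on the minus strand of the same site (chr2:26591363-26591420). Its row on the panel was not identified here.

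miR-126a-3p was the most counted microRNA of every EC sample, and it was above background but far lower in AT2 samples. Values are the deposited ones, counts times 1 scaling factor per sample. In EC they were 142463 and 118858 at E16.5, 92001 in the only E18.5 sample, 75076 in the only P1 sample, 169668 and 129420 at P7, 187575 and 48398 at P14, and 196814 and 116628 at P28. In AT2 they were 1203 and 4185 at E16.5, 4514 and 4686 at E18.5, 1575 and 1282 at P1, 10208 and 9558 at P7, 336 and 8496 at P14, and 1197, 1277 and 8542 at P28. The cell types did not overlap, and the lowest EC sample (P14 replicate 2) stood 4.74-fold above the highest AT2 sample (P7 replicate 1). All other EC samples stood at 75076 or higher.

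miR-126a-5p, the passenger arm, showed the same separation at a lower level. In EC its values were 15028 and 6552 at E16.5, 4304 in the E18.5 sample, 7309 in the P1 sample, 6690 and 7828 at P7, 8454 and 1830 at P14, and 6931 and 5674 at P28. In AT2 they were 83.9 and 362 at E16.5, 272 and 659 at E18.5, 138 and 40.9 at P1, 609 and 500.1 at P7, 19.0 and 608 at P14, and 59.5, 85.5 and 385 at P28. The lowest EC sample was 2.78-fold above the highest AT2 sample, and these were again EC P14 replicate 2 and, in place of P7 replicate 1, AT2 E18.5 replicate 2. Every AT2 sample lay below every EC sample for 4.97% of the microRNAs tested, and by the width of this gap miR-126a-3p ranked 2 and miR-126a-5p ranked 5 of 302. In all 23 samples both arms passed the background, where background is the mean plus 2 SD of 8 ERCC control rows with low counts. The 5p arm came close to it in AT2 P14 replicate 1, with 15 recovered counts against a limit of 11.5. In AT2 P28 replicate 1 it had 8 counts against a limit of only 1, where limits in the other samples ran from 6.74 to 36.4.

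**Figure D1:**
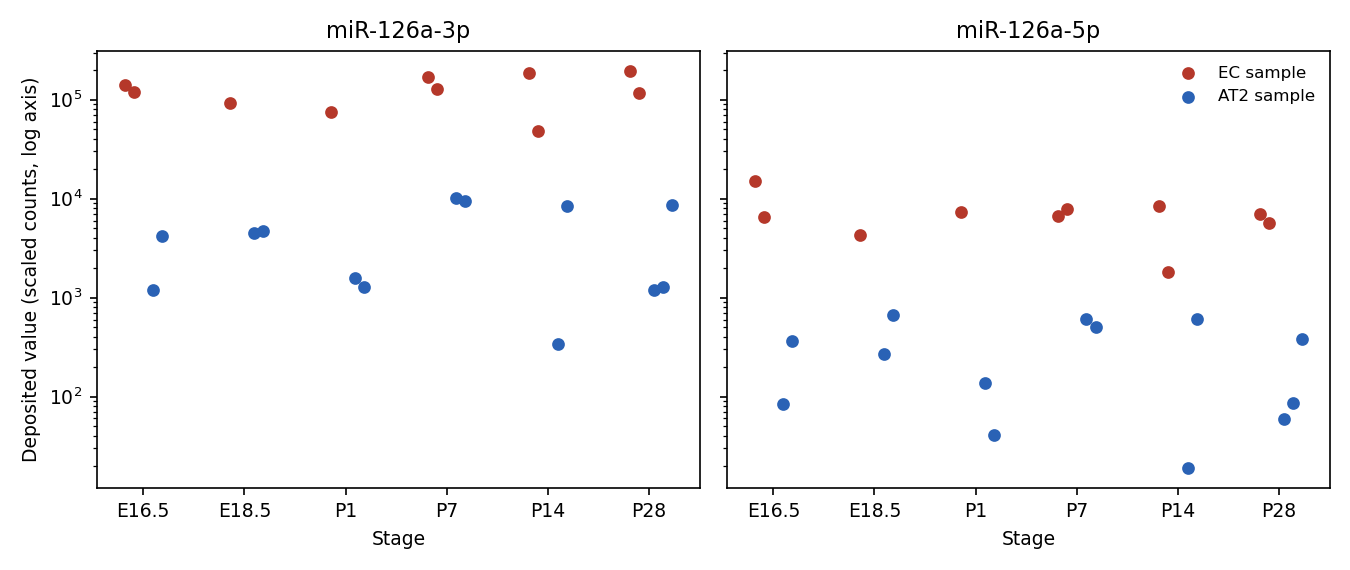
Deposited values (scaled counts, log axis) of miR-126a-3p on the left and miR-126a-5p on the right at 6 stages, 1 point per sample, EC in red and AT2 in blue. Every EC point lies above every AT2 point, and the 2 AT2 points of P14 (336 and 8496 for the 3p arm) lie farther apart than those of any other stage.

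The fit over all 302 microRNAs placed both arms at the low end of the AT2 minus EC differences. Averaged over the 6 stages, miR-126a-3p was lower in AT2 cells by a log2 of -5.27 ± 0.48 (SE; 95% interval -6.27 to -4.27), the lowest of 302, with an adjusted p of 6.03e-08 (limma). miR-126a-5p followed at -5.04 ± 0.52 (interval -6.13 to -3.95, adjusted p = 3.10e-07, limma). These are 38.6-fold and 32.9-fold differences, while the 302 microRNAs had a median difference of -0.43. Their size depended on the scaling: the 3p difference was -3.59 with quantile normalization, -4.47 relative to the microRNA total and -4.53 in edgeR, and the 5p difference was -4.25 relative to the total and -4.28 in edgeR, all called. A share of 47.7% of the microRNAs was called lower in AT2 cells by the same test, so the call alone sets neither arm apart. Earlier results of these data placed 3 EC samples apart from the others, replicate 2 of P14, replicate 2 of P28 and the P1 sample, and without them the differences were -5.45 and -4.98. Both arms were already known to be EC-high in these samples when they were chosen. In bulk RNA of sorted cells, fewer cells that carry a microRNA and less of it per cell cannot be told apart.

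By stage, both arms were lower in AT2 cells at all 6 stages, and the difference was called at E16.5, P1, P7, P14 and P28 but not at E18.5 (limma, adjusted over 302 microRNAs at each stage). The 3p difference was -6.01 ± 1.00 at P28 (adjusted p = 0.000234), -5.86 ± 1.09 at E16.5 (0.000717), -5.81 ± 1.09 at P14 (0.00356), -5.72 ± 1.34 at P1 (0.0115) and -3.91 ± 1.09 at P7 (0.0114). The 5p difference was -6.58 ± 1.46 at P1 (adjusted p = 0.00926), -5.82 ± 1.19 at E16.5 (0.0015), -5.63 ± 1.09 at P28 (0.000726), -5.16 ± 1.19 at P14 (0.0113) and -3.71 ± 1.19 at P7 (0.0219). The test called 6.95% of all microRNAs lower in AT2 cells at P1, 18.2% at P28, 19.2% at P14, 19.5% at E16.5 and 31.8% at P7. At E18.5, with 1 EC sample, the 3p arm stood at -4.32 ± 1.34 (adjusted p = 0.0636) and the 5p arm at -3.34 ± 1.46 (adjusted p = 0.159), and 1.99% were called lower. The 3p arm had the lowest difference of all 302 at E16.5, E18.5, P14 and P28, and the 5p arm at P1. Whether the difference varies between single stages was not tested.

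The calls at P7 and P1 depended on the processing, and those at P14 on which samples were kept. At P7 the 3p call was lost with quantile normalization (-0.89, limma adjusted p = 0.62) and with scaling to the sample's microRNA total (-2.54), and the 5p call with that scaling (-2.34), with a median shift (-3.19), with background subtracted (-3.72) and in edgeR (-3.02). The 3p call at P1 was lost with quantile normalization (-4.82). At P14 the differences were smaller in edgeR, -4.14 for 3p (edgeR adjusted p = 0.025) and -3.41 for 5p (0.0497), the latter only just called. With the title ID as a block, over the IDs carried by both cell types, the 5p call at P14 was lost (-6.52). That fit kept a single ID at P14, with EC P14 replicate 2 and AT2 P14 replicate 1, the lowest sample of each cell type in 5p.

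Single samples also decided some of these stage calls. At P14 the 3p difference was -3.49 without AT2 P14 replicate 1, -8.14 without AT2 P14 replicate 2 and -4.84 without EC P14 replicate 1, where the call was lost (limma, adjusted p = 0.111). The 5p call at P14 was lost at -2.69 without AT2 P14 replicate 1 and at -4.05 without EC P14 replicate 1, and the 5p difference was -7.62 without AT2 P14 replicate 2. At P1 the calls of both arms were lost without AT2 P1 replicate 2, at -5.57 and -5.72. At P7 the 3p call was lost without EC P7 replicate 1, AT2 P7 replicate 1 or AT2 P7 replicate 2 (-3.95 to -3.71), and the 5p call without any 1 of the 4 P7 samples (-3.85 to -3.57).

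**Figure D2:**
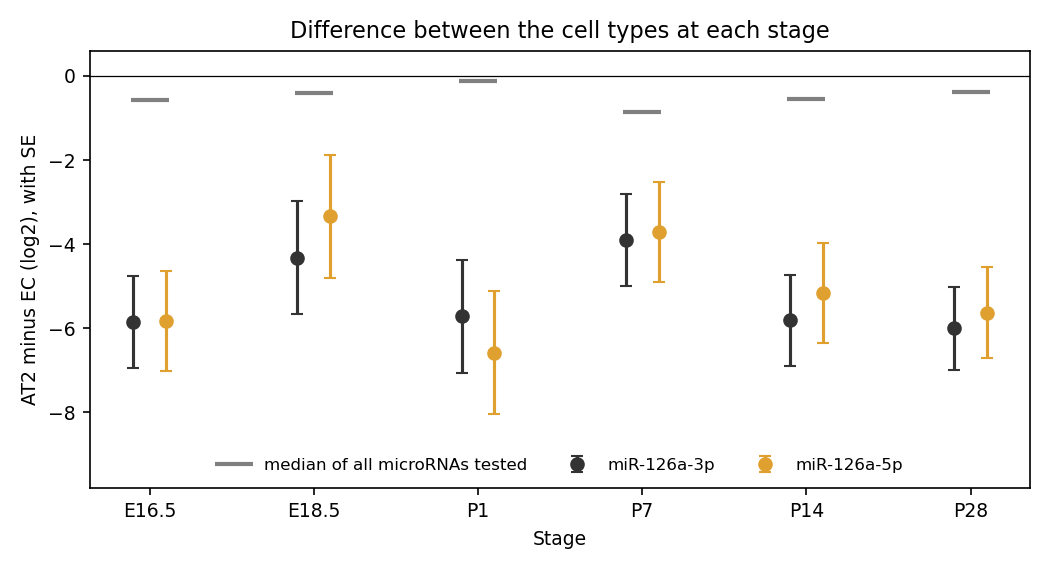
AT2 minus EC difference (log2, points with SE bars from the limma fit) of miR-126a-3p in black and miR-126a-5p in orange at each stage, with the median of the 302 tested microRNAs as a grey line. The 3p points lie between -6.01 and -3.91 and the 5p points between -6.58 and -3.34, and the grey lines lie between -0.85 and -0.12.

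miR-126a-3p alone made up a large part of all microRNA counts in every EC sample. The share of miR-126a-3p was 39.7% and 33.9% at E16.5, 31.9% in the E18.5 sample, 33.3% in the P1 sample, 42.9% and 39.7% at P7, 44.9% and 23.4% at P14, and 44.9% and 37.1% at P28, or 37.2% ± 6.73 over EC (SD, n = 10). The 95% Wilson interval of a single share was narrow, from 31.4% to 32.4% in the EC sample with fewest counts (E18.5 replicate 1, 36373 microRNA counts), and covers counting error only. The next microRNA of each EC sample took 3.74% to 6.74%, and miR-126a-3p exceeded it 3.47-fold to 11.3-fold. The passenger arm took 0.885% to 4.19% of EC counts (median 1.84%) and ranked between 3 and 28 of 602. Since probes differ in efficiency, ranks and shares order the counts, not the molecules.

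In AT2 cells the share of miR-126a-3p ranged from 0.16% in P14 replicate 1 to 7.82% in P7 replicate 1 (median 1.74%, n = 13), and that of miR-126a-5p from 0.00903% to 0.466%. The 3p arm ranked first in 1 AT2 sample, P7 replicate 1, and as low as 65 in P14 replicate 1. The 5p arm ranked between 44 and 191. Over the 9 title IDs carried by both cell types, the AT2 share of 5p was the lower one in each of the 9 (mean difference -1.97 percentage points; two-sided exact permutation test by sign flips, p = 0.00391, which is the lowest value that 9 IDs allow, and 0.0176 when adjusted over 9 tests). The 3p share was lower in all 9 as well, by -33.7 percentage points (exact sign-flip test, p = 0.00391, adjusted p = 0.0176). Without the same 3 EC samples, 6 IDs remained, all lower, with differences of -35.4 and -1.99. The adjusted p was 0.0938 by the exact test. As every ID was lower, the unadjusted p was already the lowest that 6 IDs allow, and fewer IDs raise that lowest value.

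Share and scaled level ranked AT2 samples differently where another microRNA was abundant. In AT2 P28 replicate 3, MIMAT0003484, unnamed here, took 62.8% of the counts, and in AT2 P1 replicate 2 it took 34.1%, against 12.4% or less in the other samples. In AT2 P28 replicate 3 the 3p share was 1.74%, and it was 4.67% of the counts left when MIMAT0003484 was set aside. The scaled 3p value of that sample, 8542, was the third highest of AT2 cells.

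**Figure D3:**
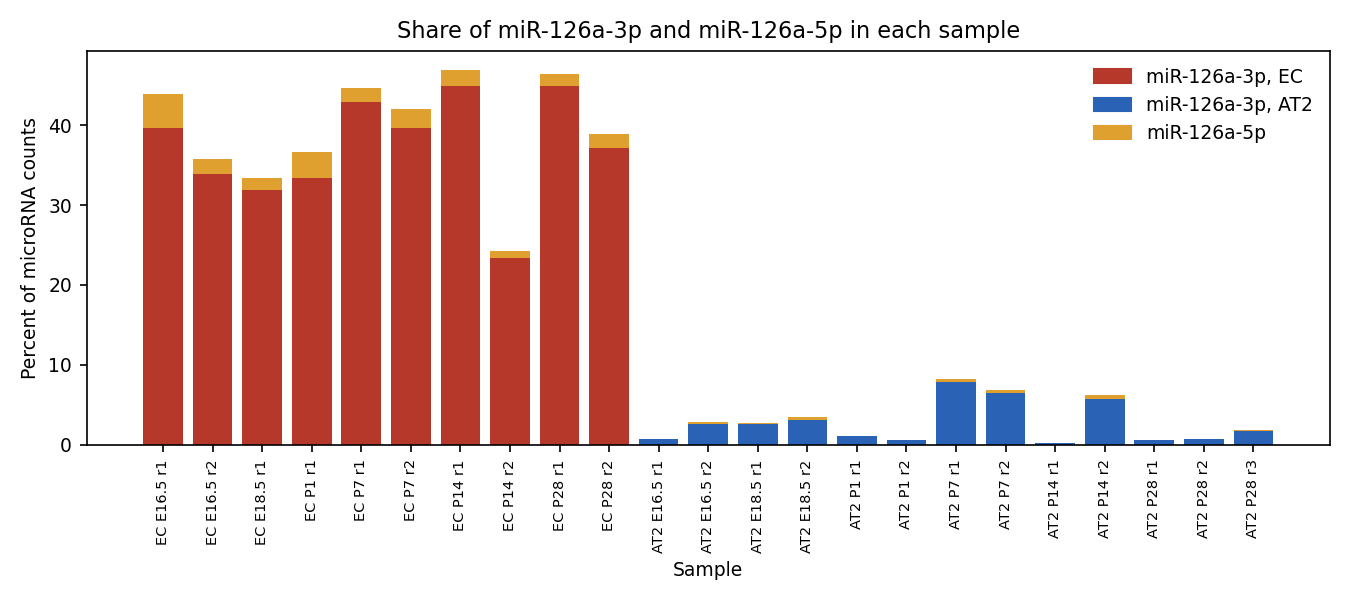
Percent of the microRNA counts of each sample taken by miR-126a-3p (red in EC, blue in AT2) and, stacked above it, miR-126a-5p (orange), with r for replicate. The 3p bars reach 23.4% to 44.9% in EC samples and 0.16% to 7.82% in AT2 samples.

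The spread of miR-126a between AT2 replicates was wide at 3 stages and narrow at the others in 3p. The 2 samples of P14 differed 25.3-fold in the 3p arm and 32.1-fold in the 5p arm, and the 3 samples of P28 spanned 7.14-fold and 6.48-fold. At E16.5 the replicates differed 3.48-fold and 4.31-fold. At E18.5, P1 and P7 they differed 1.04-fold, 1.23-fold and 1.07-fold in 3p, and 2.43-fold, 3.37-fold and 1.22-fold in 5p. Over all 13 AT2 samples the range was 30.4-fold for 3p and 34.8-fold for 5p, against 4.07-fold and 8.21-fold in EC. In an order looked at after the values were seen, the 6 AT2 samples lowest in 3p (336 to 1575) were also the 6 lowest in 5p (19.0 to 138), and the next sample up stood 2.66-fold higher in 3p and 1.97-fold higher in 5p. These 6 were both P1 samples and E16.5 replicate 1, P14 replicate 1, P28 replicate 1 and P28 replicate 2, so high and low samples occurred together at E16.5, P14 and P28.

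Relative to the EC sample of the same title ID, the AT2 sample held 0.608% to 7.39% of the 3p level (median 3.52%, n = 9) and 0.559% to 9.10% of the 5p level (median 5.52%). The highest 3p fractions were 6.02% and 7.39% at P7 and 7.32% in 1 ID of P28, and the lowest were 0.608% in the other ID of P28, 0.695% at P14 and 0.845% in 1 ID of E16.5. Beside these values, 7 other microRNAs stood at a log2 of -2 or lower in AT2 minus EC, were called, and were above background in all 10 EC samples. They were selected on these same samples and are unnamed here. Their median log2 distance from the EC mean in AT2 samples lay between -4.97 and -2.97, with 5 or 6 of the 7 above background in each AT2 sample. For miR-126a-3p this distance lay between -8.45 and -3.53. In AT2 P7 replicates 1 and 2, P14 replicate 2 and P28 replicate 3 the distance of the 7 (-3.17, -3.30, -3.54 and -3.81) was close to that of miR-126a-3p (-3.53, -3.63, -3.80 and -3.79). These are also the AT2 samples highest in 3p. In AT2 P14 replicate 1 the 7 stood at -4.37 and miR-126a-3p at -8.45. In each of the remaining AT2 samples miR-126a-3p also stood well below the 7, at -6.63 to -4.66 against -4.97 to -2.97. The part of endothelial cells or RNA in the AT2 values was not tested.

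EC P14 replicate 2 was low in both arms, at -1.29 from the EC mean on the log2 scale for 3p and -1.78 for 5p, and the 7 other EC-high microRNAs stood at -1.23 in it. Without this sample the EC share of miR-126a-3p was 38.7% ± 4.97 (SD, n = 9). The next lowest EC sample in 3p, P1 replicate 1, stood at -0.66.

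The age of the animals showed no called change of either arm in either cell type. From early (E16.5 and E18.5) to late (P7, P14 and P28), miR-126a-3p stood at a log2 of 0.24 ± 0.80 in EC (95% interval -1.45 to 1.92, limma adjusted p = 0.839) and 0.08 ± 0.69 in AT2 (-1.36 to 1.53, adjusted p = 0.916). miR-126a-5p stood at -0.22 ± 0.88 in EC (-2.06 to 1.63, adjusted p = 0.854) and -0.47 ± 0.75 in AT2 (-2.05 to 1.11, adjusted p = 0.618). These intervals include changes of 2-fold either way. Late minus early was called for 37.1% of the microRNAs in EC and 51.3% in AT2. The median over all microRNAs fell by 0.57 in EC and by 0.64 in AT2, so by value both arms stood higher late relative to it in both cell types. After a median shift of each sample no such change was called. The 3p arm then stood at 0.84 in EC (limma adjusted p = 0.468) and 0.97 in AT2 (0.292), and the 5p arm at 0.39 in EC (0.763). The AT2 change minus the EC change was -0.15 ± 1.06 for 3p and -0.25 ± 1.15 for 5p (limma adjusted p = 0.966 and 0.942), and 6.29% of microRNAs were called.

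Neither arm passed the F-test over the 6 stages in EC (limma adjusted p = 0.959 for 3p and 0.918 for 5p), where 27.2% of the microRNAs passed, nor in AT2 (adjusted p = 0.203 for both), where 49.0% passed. Over these 10 age tests limma and edgeR each called 0, and 0 had an unadjusted p under 0.05 in either. In AT2 the F-test called both arms when AT2 P14 replicate 1 was left out (limma adjusted p = 0.0369 for 3p and 0.0443 for 5p) and when AT2 P14 replicate 2 was (0.00526 and 0.00903). By stage mean, AT2 3p levels were in the order P7, E18.5, P28, E16.5, P14 and P1 (log2 of 13.27, 12.17, 11.20, 11.13, 10.73 and 10.47). The order in EC was P28, P7, E16.5, P14, E18.5 and P1, from 17.21 at P28 to 16.20 at P1. In EC the 5p order was E16.5, P1, P7, P28, E18.5 and P14 (13.28, 12.84, 12.82, 12.61, 12.07 and 11.94). In AT2 it was P7, E18.5, E16.5, P28, P14 and P1 (9.11, 8.73, 7.46, 6.98, 6.78 and 6.25). Neighbours in these orders overlapped in their samples' values except P7 and E18.5 of AT2 cells in 3p and P28 and E18.5 of EC in 5p. E18.5 and P1 of EC, with 1 sample each, have no spread in 3p.

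None of the 20 steps from a stage to the next one passed for either arm in limma or edgeR. Of these, 3 had an unadjusted p under 0.05 in limma and 2 in edgeR. The largest was in AT2 cells from P1 to P7, with 2.80 ± 1.09 for 3p and 2.86 ± 1.19 for 5p (limma adjusted p = 0.142 and 0.17), which were the third and the second highest of 302 microRNAs at that step. Both P7 samples (10208 and 9558 for 3p) lay above both P1 samples (1575 and 1282). From P7 to P14 the 3p arm stood at -2.54 ± 1.09 (limma adjusted p = 0.577), with 8496 and 336 at P14. The test called 0.662% of all microRNAs from P1 to P7 in AT2 cells, 0% from P7 to P14, and 8.61% (from E18.5 to P1) or fewer at the other AT2 steps. In EC it called 2.65% from P14 to P28, 1.32% from E18.5 to P1, 0.331% from P1 to P7, and 0% at the other steps.

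The arm ratio, the 3p value over the 5p value, is free of the sample's scaling. Its size depends on the efficiency of both probes, so it is read between samples only. In EC it was 9.48 and 18.1 at E16.5, 21.4 in the E18.5 sample, 10.3 in the P1 sample, 25.4 and 16.5 at P7, 22.2 and 26.5 at P14, and 28.4 and 20.6 at P28. In AT2 it was 14.3 and 11.6 at E16.5, 16.6 and 7.11 at E18.5, 11.4 and 31.3 at P1, 16.76 and 19.1 at P7, 17.7 and 14.0 at P14, and 20.1, 14.9 and 22.2 at P28. The ranges overlapped, 9.48 to 28.4 in EC (median 21.0) and 7.11 to 31.3 in AT2 (median 16.6), although the levels of both arms did not overlap between the cell types. Counting error did not cover all of the spread: the exact 95% interval was 9.21 to 9.76 in EC E16.5 replicate 1 and 17.4 to 18.9 in replicate 2. With few 5p counts it was wide, 10.6 to 32.1 in AT2 P14 replicate 1 and 9.97 to 47.4 in AT2 P28 replicate 1.

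**Figure D4:**
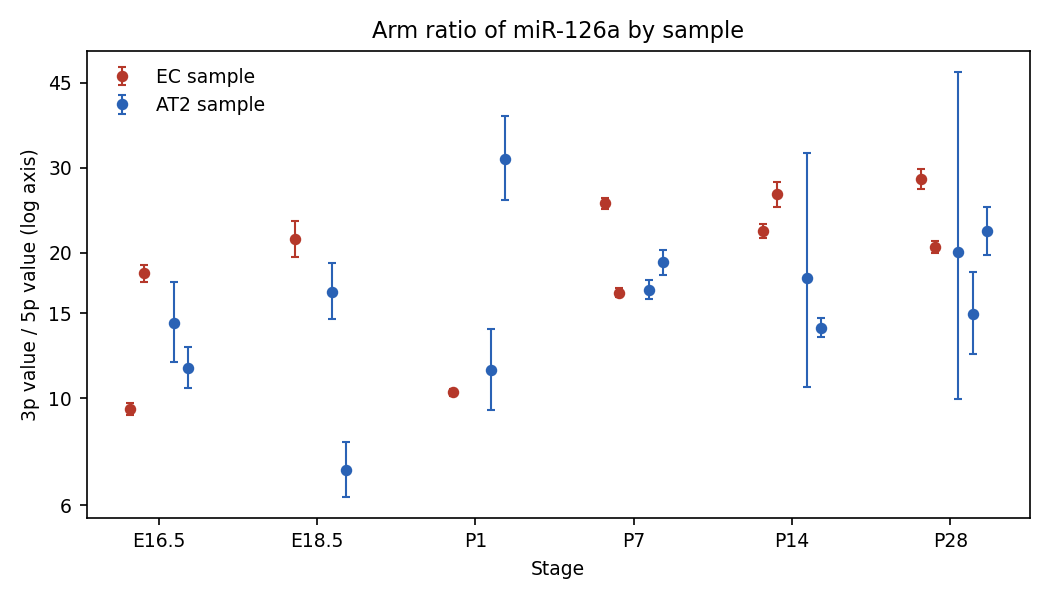
Arm ratio (3p value over 5p value, log axis) of each sample at 6 stages, EC in red and AT2 in blue, with exact 95% intervals that cover counting error only. The ratios of the cell types overlap, and the lowest values (7.11, 9.48 and 10.3) are at E18.5, E16.5 and P1.

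Between the cell types the arm ratio did not pass the test. Over the 9 shared IDs the AT2 minus EC difference was a log2 of -0.18 ± 0.45 (SD), lower in AT2 cells in 5 and higher in 4, with a range of -0.65 to 0.60 (exact sign-flip test, two-sided, p = 0.242, adjusted p = 0.436). From early to late stages the ratio differed by 0.57 in EC (mean log2 3.95 early, n = 3, and 4.52 late, n = 6; exact permutation test, p = 0.0833, adjusted p = 0.188). In AT2 it differed by 0.58 (3.56 early, n = 4, and 4.14 late, n = 7; exact permutation test, p = 0.0212, adjusted p = 0.0636). The ratio was higher late in both, and neither passed after adjustment over the 9 tests. With 1 sample left out the EC difference lay between 0.22 and 0.80, lowest without EC E16.5 replicate 1. Much of it thus rested on that sample, 1 of the 3 early ones. Without AT2 P14 replicate 2 the AT2 difference was 0.63 and passed (exact permutation test, adjusted p = 0.0286), and over leaving out each sample the adjusted p ran up to 0.206. Early and late ratios overlapped in both cell types.

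The title IDs start with 15 or 16, and the labels do not say what these numbers mean. In both cell types all E16.5 and P1 samples carry 16 and all E18.5 and P7 samples carry 15, so the steps among these 4 stages, P1 to P7 included, cannot be told apart from the number. In AT2 cells both P14 samples carry 16, so the step from P7 to P14 cannot be told apart from it either. The AT2 stages that carry only 15, P7 and E18.5, were also the highest by stage mean in both arms. At the 4 stages with the same number in both cell types, the number as a term in the limma fit could not move the AT2 minus EC differences. At P14 and P28 it gave -5.97 and -5.96 for 3p and -5.27 and -5.60 for 5p, all still called. Within the IDs starting with 15 the late minus early arm ratio was 0.09 in EC (1 against 4 samples) and 0.70 in AT2, and within those starting with 16 it was 0.83 in EC (2 against 2) and 0.46 in AT2. The EC share of miR-126a-3p was 11.2 percentage points higher late within the first and stood at -6.51 within the second, and over all EC samples it stood at 3.67 (exact permutation test, p = 0.5, adjusted p = 0.58). The AT2 minus EC share of the 3p arm was -35.5 within the first (4 IDs) and -32.2 within the second (5 IDs), lower in every ID.

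The passenger arm was the microRNA most like the guide arm. Across all 23 samples, of the other 301 microRNAs miR-126a-5p had the highest correlation with miR-126a-3p (Pearson r = 0.984 on the log2 scale), followed by MIMAT0000160 (r = 0.972) and MIMAT0000158 (r = 0.970), whose names the files do not give. These samples fall into the 2 cell types, which differ strongly in all 3, so the value mostly restates that difference. Within the 13 AT2 samples miR-126a-5p was again the first of 301 (r = 0.953). Within the 10 EC samples it ranked 33 (r = 0.72, Spearman rho = 0.60, and r = 0.45 without the 2 samples farthest from the median of 3p), and the first was MIMAT0000122 (r = 0.953). All microRNAs of a sample share its scaling, and 9 title IDs occur in both cell types, so no p is given.

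**Figure D5:**
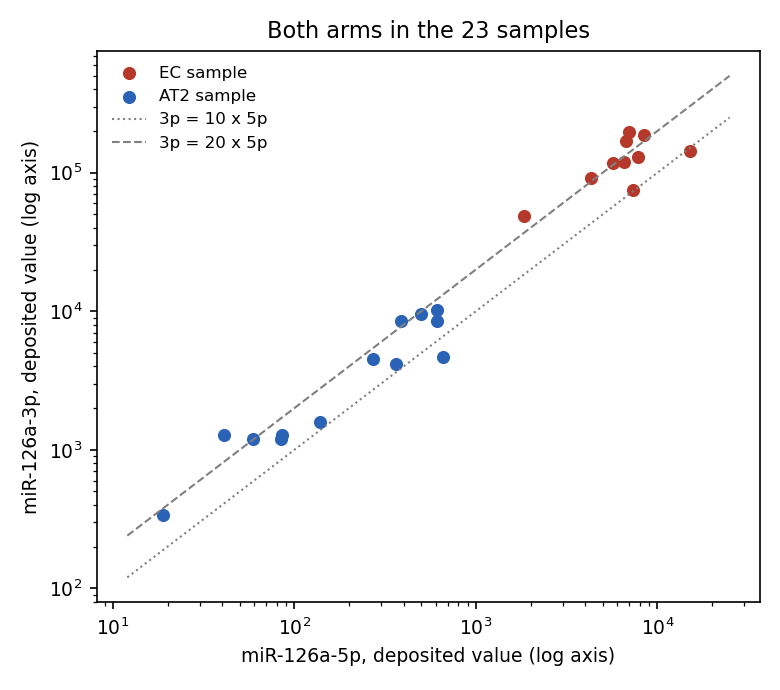
miR-126a-3p against miR-126a-5p (deposited values, log axes) in the 23 samples, EC in red and AT2 in blue, with lines where the 3p value is 10 and 20 times the 5p value. The AT2 samples, from 336 to 10208 in 3p, and the EC samples, from 48398 to 196814, lie along the same band.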

How the data were processed

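The authors deposited 1 table of a signal, nCounter counts times 1 factor per sample, as the values show; the kit and panel are per the labels' protocols, and no source used here gives the normalization or the treatment of background. Outside the 14 ERCC rows, 100% of 13861 values were whole multiples of the factor (0.296 to 7.93) within 0.1 count, and 9 columns held further values of exactly 1, which were left out of this count. Recovered microRNA counts ranged from 26640 to 571706 per sample. A microRNA was tested if its count passed the mean plus 2 SD of 8 low ERCC rows in at least 2 samples.

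The test was limma 3.58.1 (R 4.3.3, eBayes with trend) on log2(value + 1), 1 mean per cell type and stage, two-sided, Benjamini-Hochberg over 302 microRNAs at 0.05; fold changes are on that scale. A group with 1 sample is assumed to vary like the others. Arm ratios and shares had exact permutation tests, adjusted over 9. Alternatives, edgeR 4.0.16 on the recovered counts among them, changed scaling, filter, pseudocount, background, samples and pairing. Both tools were also run on simulated counts with a constant dispersion and no difference between stages. That run does not cover replicates as unlike as those of AT2 P14.

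The members were named by the rule that chose them. The rule for other named microRNAs took the 5 most correlated with miR-126a-3p over all samples and 3 in each cell type, and the highest other microRNA of a sample; 2, 1 and 1 are given because identifiers are unnamed here. The 5 marker lists fixed by name (endothelial, epithelial, leukocyte, erythroid, mesenchymal) and other hairpins' arms could not be matched to identifiers, so 0 lists were used, and the labelled cell types were not checked by markers other than miR-126a. Members and lists were chosen with earlier results of these data known. RefSeq matched 1 of the 2 mature names.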

Additional observations from a re-analysis of the deposited data

Results flagged for a closer look

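EC P14 replicate 2 was far below the other 5 late EC samples in miR-126a-3p (log2 of 15.56), in miR-126a-5p (10.84) and in the share of miR-126a-3p (23.4%). AT2 E16.5 replicate 1 was far below the other 3 early AT2 samples in miR-126a-3p (log2 of 10.23). Each stood apart in its late or early group by Dixon's test of the gap to the nearest sample. The 40 checks took the lowest and the highest sample of each group in each measure, and 4 were met. Chance flags about 1 in 20 such sets, counting both ends. The 4 are not separate results, since 3 of them are of EC P14 replicate 2 in related measures. Among all 10 EC samples the 3 values of EC P14 replicate 2 did not stand apart (gap over range of 0.313, 0.406 and 0.394, against a critical value of 0.466). In the late group the 3p level and share passed narrowly (0.627 and 0.636 against 0.625). AT2 E16.5 replicate 1 did not stand apart in the early group in its 3p share (0.805 against 0.829) or in 5p (0.569 against 0.829).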

How the results depend on the processing

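Over 33 results and 950 recomputations, 917 stayed on their side of the threshold, 22 lost a call and 11 gained one, and no called result changed sign. Many recomputations left out a sample that the result's difference does not use. There the value could not change, only the spread, so the count of 917 does not measure stability. Late minus early differences, none called, changed sign in some, with 1 sample left out from -0.09 to 0.56 for 3p in EC and from -0.69 to 0.86 in AT2. The AT2 minus EC differences averaged over stages were called in all alternatives, from -5.45 to -3.59 for 3p and from -5.18 to -4.25 for 5p with other settings, and from -5.66 to -4.88 and from -5.45 to -4.63 with 1 sample left out.
The 3p difference at E18.5 was called with no filter (-4.32, adjusted p = 0.0361, limma) and with a pseudocount of 10 (-4.32). Quantile normalization lost the 3p calls at P1 (-4.82) and at P7 (-0.89), where it gives equal ranks equal values and 3p ranked 1 or 2 in each P7 sample. Scaling to the microRNA total of each sample lost the P7 calls of 3p (-2.54) and 5p (-2.34) and gave a called 3p range over AT2 stages (3.21). The 5p call at P7 was also lost with a median shift (-3.19), background subtraction (-3.72) and edgeR (-3.02). Without the 3 EC samples named above, 6 of the 9 IDs were left for the share tests (-35.4 and -1.99). Leaving out 1 sample gave -4.35 to -4.30 at E18.5 for 3p, with calls without AT2 P14 replicate 1, AT2 P14 replicate 2 or AT2 P28 replicate 3. For 3p and 5p it gave -5.87 to -5.57 and -7.45 to -5.72 at P1, -4.10 to -3.71 and -3.85 to -3.57 at P7, -8.14 to -3.49 and -7.62 to -2.69 at P14, and ranges over AT2 stages of 2.65 to 4.87 and 2.33 to 4.79. The late minus early AT2 arm ratio lay between 0.33 and 0.74. The calls at E18.5 came with samples of other stages left out, at an unchanged -4.32. The only EC samples of E18.5 and P1 could not be left out of their own stage's difference, so the ranges at these stages do not cover them. The causes were not tested. Samples of 1 title ID deviated from their group means with correlations of 0.27, 0.28, 0.31, 0.21 and -0.02, and the labels do not say what a shared ID means, so the level fits have no block, while the share and arm ratio tests compare cell types within an ID, which holds the stage fixed. With the ID as a replicate block the mean differences were -5.40 (3p) and -5.18 (5p), and the 5p call at P14 was lost (-6.52). This fit kept a single shared ID at each of E18.5, P1 and P14. Without the block, the arm ratio difference was -0.25 over all samples. Counts limit the 5p arm most: 8 and 15 counts in 2 AT2 samples.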
